A study of Mus musculus with 6 samples.

Results

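The nuclear genes of the mitochondrial respiratory chain and ATP synthase were compared between adrenal glands of Chga knockout mice and wild-type mice. Members were all probe sets with a single gene symbol that starts with Nduf, Uqcr or Atp5, is Sdha to Sdhd, starts with Cox4 to Cox7, or is Cox8a, Cycs or Cyc1. These were 97 probe sets of 71 genes, out of 8251 genes with a single symbol on the array. Each gene was represented by its probe set of highest mean signal over the 6 arrays. By complex, there were 29 genes of complex I, 4 of complex II, 8 of complex III, 12 of complex IV and 14 of complex V, with cytochrome c (Cycs) and 3 associated factors (Ndufaf1, Ndufaf4 and Cox7a2l) beside them. Of the 71 genes, 66 were bright enough to be tested, and the 5 dim ones (Ndufa12, Ndufc2, Cox5a, Cox8a and Atp5j2) are given as values only. The 13 subunits encoded by mitochondrial DNA were not analysed here.

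The series set 3 arrays of Chga knockout mice (KO) against 3 arrays of wild-type mice (WT), one biotin-labelled RNA sample from adrenal gland on each. All mice were males 12 weeks of age, and the labels credit the knockout and the wild-type mice to one report of Mahapatra and colleagues. Chga encodes chromogranin A, a protein that chromaffin cells of the adrenal medulla store in granules together with catecholamines. The whole gland was used, so that cortex, medulla and any attached tissue share one RNA sample, and fewer cells of a type and less RNA per cell cannot be told apart. Values are MAS5 signals, linear intensities that the authors had scaled so that the 6 arrays had nearly the same trimmed mean.

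The respiratory chain passes electrons from NADH (complex I) and from succinate (complex II) through complex III, cytochrome c and complex IV to oxygen, and pumps protons across the inner mitochondrial membrane on the way. Complex V, the ATP synthase, lets the protons flow back and makes ATP. Adrenal cortex cells are rich in mitochondria, where the first step of steroid synthesis takes place, and chromaffin cells use ATP to fill their granules.

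Chga itself gave 1188, 858 and 951 on the KO arrays, against 46719, 30213 and 35306 on the WT arrays, by its brighter probe set. All 3 KO arrays thus lay far below all 3 WT arrays (log2 change -5.19 ± 0.20 (SE), limma adjusted p = 5.29e-06), as the labels state. The summed signal of 7 cortex markers ranged from 570390 to 649650 on KO arrays and from 531910 to 648860 on WT arrays. That of 5 medulla markers ranged from 167420 to 181480 on KO arrays and from 138850 to 153070 on WT arrays. Chgb, a second granin, carried that difference: without it the other 4 medulla markers summed to 75932, 61284 and 69216 on KO arrays and 83762, 61731 and 67745 on WT arrays, which overlap. No marker of either list passed the test. The value was higher in KO glands for all 7 macrophage markers (median log2 change 0.63) and all 6 endothelial markers (median 0.43), of which none passed. The summed macrophage signal ranged from 17110 to 27593 on KO arrays and from 13198 to 17130 on WT arrays, and the endothelial one from 24579 to 29469 on KO arrays and from 19308 to 22235 on WT arrays. Their part in the results that follow was not tested. The Gapdh control probe sets at the 3′ and 5′ ends of that transcript, a sign of RNA quality, had a signal ratio of 0.831, 1.30 and 1.29 on KO arrays 1, 2 and 3 and 0.762 to 0.806 on the WT arrays. The same ratio for the actin control was 1.319, 1.695 and 1.724 on KO arrays and 1.144 to 1.218 on WT arrays. By both ratios, all 3 KO arrays lay above all 3 WT arrays. KO arrays 2 and 3 also carried skeletal muscle transcripts, as described with Cox6a2 below.

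No member passed the test in either direction. Over all probe sets, 33 of 7453 passed at an adjusted p of 0.05 (0.443%), of which 12 were higher (0.161%) and 21 lower (0.282%) in KO glands. The smallest adjusted p among the 66 tested members was 0.153, for Cox6a2. At an unadjusted p under 0.05, 2 members were higher in KO glands (Cox6a2 and Ndufa7) and 1 was lower (Ndufaf1). Of all probe sets, 5.06% were higher and 6.25% lower at that p, and 11.3% either way. The 3 KO arrays lay below the 3 WT arrays without overlap for 5 members (Ndufaf1, Ndufs1, Ndufa9, Sdhb and Atp5j), which is 7.58% of those tested, close to the 8.83% of all probe sets. They lay above without overlap for 1 member, Cox6a2, against 7.55% of all probe sets.

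The sizes that the data allow were small for most members. The median log2 change of the 71 genes, KO minus WT, was -0.05, with the middle of the distribution between -0.14 and 0.03, and the median over all 8251 genes was 0.00, with the middle between -0.23 and 0.23. The value was below 0 for 48 of the 71 members (67.6%), and for 51.1% of all tested probe sets. The 95% interval of the change lay within a 1.5-fold difference either way for 48 of the 66 tested members (72.7%), against 34.3% of all probe sets. It lay within a 2-fold difference for 63 of 66, against 79.0% of all probe sets, and the 3 exceptions were Cox6a2, Ndufa1 and Ndufaf4. Members are mostly bright, and bright probe sets have narrower intervals in general. Among the brightest 25% of tested probe sets, the interval lay within 1.5-fold for 43 of 51 members (84.3%) and for 979 of all 1539 genes (63.6%).

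**Figure D1:**
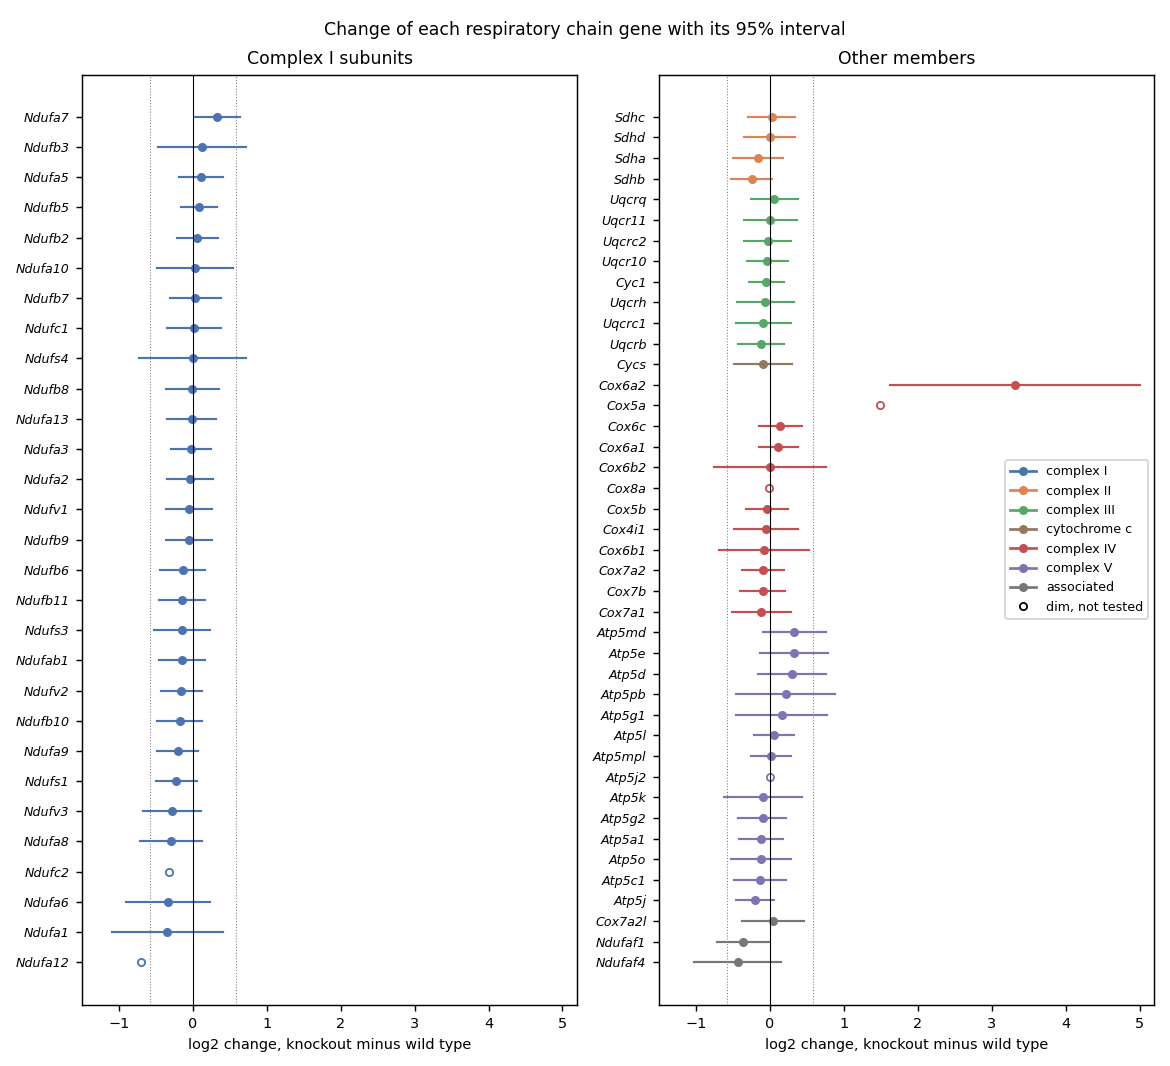
Log2 change of each member gene, knockout minus wild type, with its 95% interval (bars, limma, 3 arrays per genotype), coloured by complex. Dotted lines mark a 1.5-fold difference either way, and open circles are the 5 dim genes without a test. Most points lie close to 0, and Cox6a2, at 3.32, stands outside the range of all others.

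In complex I, which takes electrons from NADH, the 29 genes had a median log2 change of -0.05. Values were above 0 for 8 genes and below 0 for 21, and the 27 tested ones ranged from -0.34 (Ndufa1) to 0.33 (Ndufa7). Ndufb5, an accessory subunit of the membrane arm and the complex I member of highest signal, gave 53805, 55541 and 50606 on KO arrays, against 51949, 50943 and 47384 on WT arrays. The groups overlap, with KO array 3 under WT arrays 1 and 2, and the log2 change was 0.09 ± 0.11 (SE; 95% interval -0.15 to 0.33; limma adjusted p = 0.792).

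Ndufa7, an accessory subunit, gave 45556, 50925 and 41286 on KO arrays and 41708, 32634 and 35704 on WT arrays. KO arrays 1 and 2 were the highest of the 6, while KO array 3 lay just under WT array 1. The log2 change was 0.33 ± 0.14 (SE; 95% interval 0.02 to 0.63) and did not pass the test (adjusted p = 0.420). Ndufs1, the iron-sulphur subunit through which electrons pass in the peripheral arm, gave 10006, 11314 and 10060 on KO arrays and 12778, 11723 and 12045 on WT arrays. All 3 KO arrays were lower, with a log2 change of -0.22 ± 0.12 (SE; adjusted p = 0.528). Ndufa9, an accessory subunit near the quinone site, gave 14282, 12933 and 13348 on KO arrays and 16536, 14296 and 15918 on WT arrays. Here too the KO arrays lay below the WT arrays, although KO array 1 and WT array 2 nearly met, and the log2 change was -0.20 ± 0.12 (SE; adjusted p = 0.559).

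Ndufa1, a small membrane subunit needed for assembly, gave 1024, 596 and 1172 on KO arrays and 888, 1627 and 1019 on WT arrays. One low KO array and one high WT array set its log2 change of -0.34 ± 0.33 (SE; adjusted p = 0.740), whose 95% interval of -1.10 to 0.41 is among the widest of the members. Ndufa12, an accessory subunit, was dim, at 165, 83.3 and 192 on KO arrays and 415, 89.4 and 337 on WT arrays. The groups overlap, and its value of -0.70 has no test. Ndufc2, another accessory subunit, was also dim, at 111, 652 and 588 on KO arrays and 712, 464 and 271 on WT arrays, with the groups fully mixed. Ndufa3 and Ndufv2, an accessory and a core subunit, each had a second tested probe set with the opposite sign: -0.03 and 0.45 for Ndufa3, and -0.16 and 0.11 for Ndufv2 on the log2 scale. For all 4 of these values the adjusted p was 0.531 or above.

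Complex II, succinate dehydrogenase, also belongs to the citric acid cycle. Its median log2 change over 4 genes was -0.08. Sdhb, the iron-sulphur subunit, gave 26803, 25433 and 21862 on KO arrays and 28332, 30428 and 28649 on WT arrays. All KO arrays lay below all WT arrays, with KO array 3 the lowest, and the log2 change was -0.24 ± 0.12 (SE; 95% interval -0.52 to 0.03; adjusted p = 0.491). Sdha, the flavoprotein that oxidises succinate, gave 4393, 3982 and 3681 on KO arrays and 4948, 4030 and 4526 on WT arrays. KO array 1 lay above WT array 2, so that the groups overlap, and the log2 change was -0.16 ± 0.15 (SE; adjusted p = 0.726). The membrane anchors Sdhc and Sdhd had log2 changes of 0.02 and -0.01. All 4 intervals lay within 1.5-fold.

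Complex III carries electrons from ubiquinol to cytochrome c. The log2 changes of its 8 genes ranged from -0.11 to 0.06, with a median of -0.04, and all 8 intervals lay within 1.5-fold. Cyc1, the haem subunit that hands electrons to cytochrome c, gave 47903, 48296 and 44791 on KO arrays and 48558, 49926 and 47602 on WT arrays. The groups overlap, and the 6 arrays lie close together. The log2 change was -0.05 ± 0.11 (SE; 95% interval -0.29 to 0.19; adjusted p = 0.885), while a second Cyc1 probe set gave 0.16 (adjusted p = 0.790). Uqcrb, a ubiquinol-binding subunit, and Uqcrc1, a core subunit, had the most negative values of the complex, at -0.11 ± 0.14 (SE; adjusted p = 0.792) and -0.09 ± 0.17 (SE; adjusted p = 0.872).

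Cycs, cytochrome c itself, gave 2422, 1951 and 2242 on KO arrays and 2594, 2386 and 2096 on WT arrays. KO array 2 was the lowest and the groups overlap, with a log2 change of -0.10 ± 0.17 (SE; 95% interval -0.49 to 0.29; adjusted p = 0.868).

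Complex IV, cytochrome c oxidase, had a median log2 change of -0.03 over 12 genes, and 9 of the 10 tested ones lay between -0.11 and 0.14. The exception was Cox6a2. Several subunits of this complex exist as isoforms, one made in most tissues and one typical of heart and skeletal muscle, and in the mouse Cox6a2, Cox7a1 and Cox8b are the muscle forms beside Cox6a1, Cox7a2 and Cox8a.

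Cox6a2 gave 708, 9003 and 2438 on KO arrays, against 218, 302 and 202 on WT arrays. All KO arrays were higher, and they differed among themselves far more than the WT arrays did: KO array 1 was 2.94 times the WT mean, KO array 2 was 37.4 times and KO array 3 was 10.1 times. The log2 change was 3.32 ± 0.75 (SE; 95% interval 1.627 to 5.003), about 9.95-fold, and did not pass the test (unadjusted p = 0.0016, limma adjusted p = 0.153). The WT arrays lay under the signal of 582 that a probe set had to average to be tested, so the gene entered the test through its KO arrays. Without KO array 1 it passed, at 4.22 (adjusted p = 0.00748). With KO array 1 alone against the WT arrays, the log2 change was 1.52, from a single array in that arm, so that its spread could only be assumed to be that of the WT arrays. A fit with the Gapdh 3′ to 5′ ratio as a covariate gave 1.23 (adjusted p = 0.998). That ratio was 1.30 and 1.29 on KO arrays 2 and 3 and 0.762 to 0.831 on the other arrays. The covariate thus nearly marks KO arrays 2 and 3, and this fit cannot tell RNA quality from anything else they share.

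The same 2 arrays were high for skeletal muscle transcripts. All 12 muscle markers were on the array, and their summed signal was 10934, 90520 and 46500 on KO arrays 1, 2 and 3, against 10866, 11476 and 11527 on WT arrays. KO arrays 2 and 3 stood far above the other 4, in the same order as for Cox6a2. Pvalb gave much of the sum on the other arrays, and without it the sums were 5279, 75753 and 38165 on KO arrays, against 5231, 6224 and 5124 on WT arrays. Acta1, skeletal muscle actin, gave 565, 32131 and 13869 on KO arrays and 180, 180 and 29.1 on WT arrays. Myh1, a fast muscle myosin, gave 163, 10290 and 4516 on KO arrays and 115, 62.6 and 157 on WT arrays. Tnnt3, fast muscle troponin T, gave 65.4, 3856 and 1691 on KO arrays and 27.0, 47.4 and 34.6 on WT arrays, and Mb, myoglobin, gave 136, 2931 and 1396 on KO arrays and 37.3, 89.3 and 64.5 on WT arrays. For Acta1, Myh1, Tnnt3 and Mb, KO array 1 too lay above all 3 WT arrays, at 4.36, 1.46, 1.80 and 2.14 times the WT mean. It lay below all 3 for 2 of the 12 markers and within the WT range for the other 6. Ckmt2, the muscle form of mitochondrial creatine kinase, followed with 18.5, 2749 and 1576 on KO arrays and 48.1, 21.1 and 119 on WT arrays. Ckmt2 overlapped between the groups through KO array 1, where it was the lowest of the 6. Of the 12 markers, 10 had a higher and 2 a lower mean log2 value in KO glands, with a median log2 change of 2.06. The 2 lower ones were Ckm, muscle creatine kinase, and Myh4, a fast muscle myosin, with log2 changes of -0.17 and -0.08. Ckm gave 762, 553 and 651 on KO arrays and 763, 636 and 818 on WT arrays. None of the 8 tested ones passed, and the 4 dim ones (Myh1, Tnnt3, Tnni2 and Mb), with values between 2.81 and 4.07, have no test. The sums of white fat and liver markers were also highest on KO arrays 2 and 3. For 5 white fat markers they were 38678, 66294 and 59542 on KO arrays and 29251, 40233 and 56373 on WT arrays. For 4 liver markers they were 1734, 4619 and 4269 on KO arrays and 1795, 2467 and 2422 on WT arrays. Adipoq, at 18419, 32112 and 31932 on KO arrays and 12806, 13911 and 27874 on WT arrays, gave much of the white fat sum. Alb, at 504, 2909 and 2811 on KO arrays and 709, 678 and 832 on WT arrays, set the liver pattern. No other marker of these lists had its highest values on KO arrays 2 and 3 together. The value was higher in KO glands for 4 and lower for 1 white fat marker, and 2 and 2 for liver, and none passed. The part of muscle RNA or of these tissues in the Cox6a2 difference was not tested.

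Cox6a1, the form made in most tissues, gave 60572, 64875 and 53352 on KO arrays and 57087, 52454 and 55326 on WT arrays. The groups overlap on KO array 3, and the log2 change was 0.11 ± 0.12 (SE; 95% interval -0.15 to 0.38; adjusted p = 0.754). The muscle form Cox7a1 was not high on KO arrays 2 and 3 together. It gave 2650, 3491 and 2445 on KO arrays and 3081, 3259 and 2863 on WT arrays, where KO array 2 was the highest and KO array 3 the lowest of the 6. Its log2 change was -0.11 ± 0.18 (SE; 95% interval -0.52 to 0.29; adjusted p = 0.844). Cox7a2, its counterpart in most tissues, gave 27281, 29070 and 23310 on KO arrays and 30283, 26879 and 27479 on WT arrays. These groups overlap as well, with a log2 change of -0.09 ± 0.13 (SE; adjusted p = 0.822).

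Cox7a1 and Cox8b are also made in brown fat, which can lie in the fat around the adrenal gland. Cox8b, which is outside the member rule, gave 12181, 18462 and 10905 on KO arrays and 9356, 11395 and 14972 on WT arrays, and its log2 change was 0.21 (adjusted p = 0.778). Ucp1, the uncoupling protein that marks brown fat, gave 874, 8661 and 3496 on KO arrays and 2344, 10047 and 8955 on WT arrays. Both genotypes held a low array and overlapped widely, with a log2 change of -0.99 (adjusted p = 0.675). The 4 brown fat markers together gave 26161, 42944 and 22822 on KO arrays and 20621, 36321 and 37804 on WT arrays, so the tissue sampled held brown fat transcripts in both genotypes. The fourth marker, Elovl3, gave between 34.5 and 67.3 on the 6 arrays. Cox8a was dim, at 34.7, 211 and 252 on KO arrays and 111, 268 and 71.4 on WT arrays, and the groups are mixed.

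**Figure D2:**
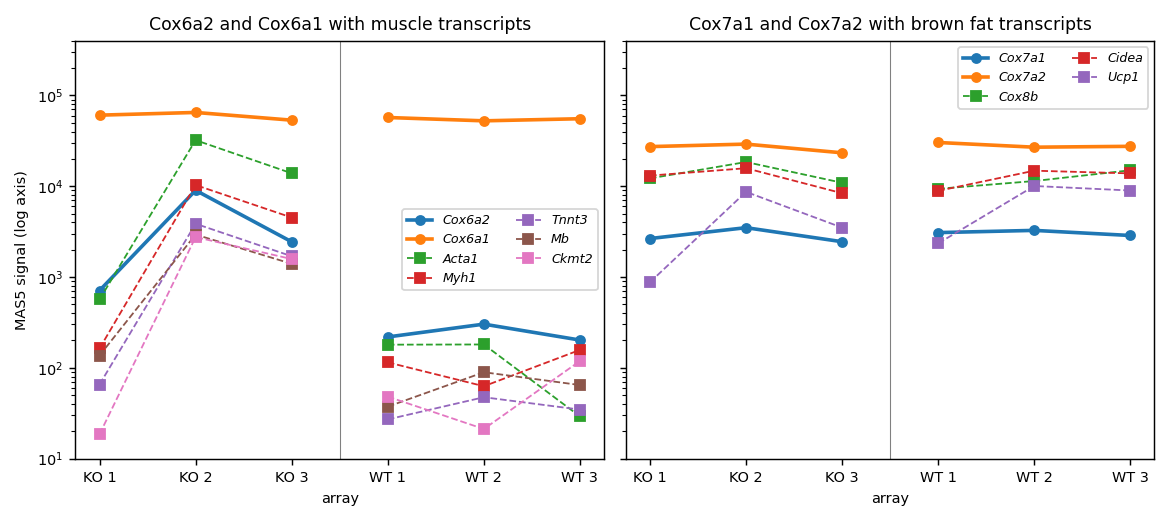
MAS5 signal on each array (log axis), knockout arrays on the left and wild-type arrays on the right of each panel; thick lines are complex IV isoforms and dashed lines are markers of muscle (left panel) or brown fat (right panel). Lines only join the arrays of one probe set, and arrays of a group have no order. Cox6a2 and the muscle transcripts shown are high on KO arrays 2 and 3, while Cox6a1, Cox7a1 and Cox7a2 vary little on this axis. The muscle markers Ckm and Myh4, which are not higher in KO glands, are not shown.

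The promoters of Cox6a1 and of the Cox7a pair are shown so that forms made in most tissues can be set beside a muscle form. No promoter entry was found for Cox6a2, so Cox7a1 is the only muscle form shown. Each is the 250 bases before the gene's start, 5′ to 3′ on the gene's own strand, from RefSeq (GRCm38.p6), and positions count back from the start. Capitals mark GCGCATG and its reverse complement CATGCGC, the core of the motif of nuclear respiratory factor NRF1, or CCGGAA and its reverse complement TTCCGG, the ETS motif that GABP binds. Cox6a1 lies on the minus strand of chromosome 5 at chr5:115348959-115349208 and held GCGCATG at -162, overlapping CATGCGC at -159, and TTCCGG at -15. Cox7a2 lies on the minus strand at chr9:79759854-79760103 and held TTCCGG at -172. Cox7a1 lies on the plus strand at chr7:30183921-30184170 and held neither motif.
Cox6a1: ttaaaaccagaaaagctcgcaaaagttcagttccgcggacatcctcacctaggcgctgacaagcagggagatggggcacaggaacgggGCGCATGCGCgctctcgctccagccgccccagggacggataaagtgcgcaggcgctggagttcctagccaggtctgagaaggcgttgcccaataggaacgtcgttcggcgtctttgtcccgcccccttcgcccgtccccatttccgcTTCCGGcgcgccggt
Cox7a2: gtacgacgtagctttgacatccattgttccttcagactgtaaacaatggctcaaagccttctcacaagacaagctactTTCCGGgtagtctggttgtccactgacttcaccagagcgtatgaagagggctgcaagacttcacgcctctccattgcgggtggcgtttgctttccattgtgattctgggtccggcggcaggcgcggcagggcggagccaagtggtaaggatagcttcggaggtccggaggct
Cox7a1: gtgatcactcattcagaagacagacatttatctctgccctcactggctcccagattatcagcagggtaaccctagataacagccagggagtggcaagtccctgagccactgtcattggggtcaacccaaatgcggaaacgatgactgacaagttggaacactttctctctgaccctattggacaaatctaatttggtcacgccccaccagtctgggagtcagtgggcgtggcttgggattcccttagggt
Promoters were found for 58 of the 71 members, and both strands were searched over the same 250 bases. The NRF1 core was present in 11 of the 58 (19.0%), against 6.01% of 6573 genes on the array and 3.68% of 27025 genes in the table. The ETS motif was present in 18 of the 58 (31.0%), against 22.2% of genes on the array and 13.6% of genes in the table. Members with the NRF1 core include Cycs, Sdhb, Cox5b, Atp5g2 and Ndufaf4 beside Cox6a1, and none of the 11 passed the test. A match describes the letters and is no evidence of binding.

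Of the other subunits of complex IV, Cox4i1, the regulatory subunit of most tissues, gave 3395, 2306 and 3071 on KO arrays and 3456, 2868 and 2698 on WT arrays. The groups overlap, and its log2 change was -0.05 ± 0.19 (SE; adjusted p = 0.948). Cox5a, a subunit on the matrix side, was dim, at 590, 446 and 110 on KO arrays and 94.4, 127 and 84.7 on WT arrays, which overlap through KO array 3. Its value of 1.49 has no test, and the other dim probe set of the gene gave -0.71.

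Complex V had a median log2 change of 0.01 over 14 genes, 7 above and 7 below 0, with values from -0.20 to 0.33. Atp5a1, the alpha subunit of the catalytic head and the complex V member of highest signal, gave 47840, 43180 and 39546 on KO arrays and 49462, 50928 and 41502 on WT arrays. The groups overlap, and the log2 change was -0.12 ± 0.13 (SE; 95% interval -0.41 to 0.18; adjusted p = 0.773). Atp5j, coupling factor F6 of the stalk, gave 13780, 14347 and 14623 on KO arrays and 17081, 15744 and 16447 on WT arrays. Each KO array lay below each WT array, but the log2 change of -0.20 ± 0.11 (SE) did not pass (95% interval -0.46 to 0.05; adjusted p = 0.529).

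The highest values of the complex were those of Atp5md, Atp5e and Atp5d. Atp5md, a small subunit of the membrane part, gave 21004, 29688 and 19916 on KO arrays and 20907, 15160 and 19617 on WT arrays. KO array 2 was high and WT array 2 low, the other 4 arrays lay together, and the log2 change was 0.33 ± 0.19 (SE; adjusted p = 0.530). Atp5e, the epsilon subunit of the central stalk, had the same shape, with 9272, 13427 and 9156 on KO arrays and 9931, 6697 and 8717 on WT arrays, and a log2 change of 0.32 ± 0.20 (SE; adjusted p = 0.573). Atp5d, the delta subunit of that stalk, gave 9125, 7939 and 5317 on KO arrays and 6454, 5688 and 5585 on WT arrays. KO array 3 was the lowest of the 6, so the groups overlap, and the log2 change was 0.30 ± 0.20 (SE; adjusted p = 0.608). The other 3 tested probe sets of Atp5d gave -0.07, 0.30 and 0.20.

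The c-ring, which turns as protons pass, is built from one mature peptide encoded by several genes. Atp5g1 gave 884, 920 and 1491 on KO arrays and 870, 1111 and 895 on WT arrays, with a log2 change of 0.16 ± 0.27 (SE; adjusted p = 0.857). Atp5g2 gave 5172, 5652 and 5887 on KO arrays and 6437, 5271 and 6253 on WT arrays, with a log2 change of -0.10 ± 0.14 (SE; adjusted p = 0.825). Both genes overlap between the groups. A second probe set of Atp5g2 gave 0.20. Atp5l, the g subunit of the membrane part, also had probe sets of opposite sign, at 0.05 and -0.03. In all, 10 members had more than 1 tested probe set, and for 6 of them the signs differed (Ndufa3, Ndufv2, Cyc1, Atp5d, Atp5g2 and Atp5l).

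The associated factors help to build or join the complexes. Ndufaf1, an assembly factor of complex I, gave 2581, 2557 and 2336 on KO arrays and 3336, 2844 and 3451 on WT arrays. All 3 KO arrays lay below all 3 WT arrays, and the KO arrays were close to each other. The log2 change was -0.36 ± 0.16 (SE; 95% interval -0.72 to -0.01; unadjusted p = 0.0473, adjusted p = 0.432). Ndufaf4, a further assembly factor of complex I, gave 770, 1337 and 1083 on KO arrays and 1300, 1703 and 1258 on WT arrays. KO array 2 lay inside the WT range, and the log2 change was -0.43 ± 0.26 (SE; adjusted p = 0.558). Cox7a2l, which joins complexes III and IV into supercomplexes, gave 10996, 8534 and 7675 on KO arrays and 10578, 7367 and 8453 on WT arrays. These groups are mixed, with a log2 change of 0.04 (adjusted p = 0.955).

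The members differed in a shared way between arrays of one genotype. The median deviation of the 71 genes from their own mean over the 6 arrays was 0.05, 0.03 and -0.18 on KO arrays 1, 2 and 3, and 0.09, -0.02 and -0.00 on WT arrays 1, 2 and 3, on the log2 scale. KO array 3 was the lowest of the 6 arrays for 38 of the 71 members (53.5%), against 15.0% of all genes and 22.5% of tested genes in the brightest 25%. It was the lowest for all 4 complex II genes, for all 8 complex III genes and for 16 of the 29 complex I genes, but for only 3 of the 12 complex IV genes and 6 of the 14 complex V genes. In complex III, the median deviation was -0.25 on KO array 3, against 0.13 and 0.08 on KO arrays 1 and 2.

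The small negative median over all members rested on that array, but not that of every class. Without KO array 3 the median log2 change was 0.01 over all members, -0.04 in complex I and -0.315 for the associated factors. With all arrays those classes had -0.05 and -0.36. With KO array 1 alone against the WT arrays, the median was 0.02 over all members, -0.003 in complex I and -0.308 for the associated factors. KO arrays 2 and 3 share muscle transcripts and the highest 3′ to 5′ ratios, and their median deviations were 0.03 and -0.18. KO array 1 also lay above all WT arrays in the Gapdh and the actin ratio, by less. The part of these measures in the low values was not tested. The median within-group SD of the tested members was 0.19 in KO glands and 0.14 in WT glands on the log2 scale, against 0.22 and 0.20 over all tested genes.

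**Figure D3:**
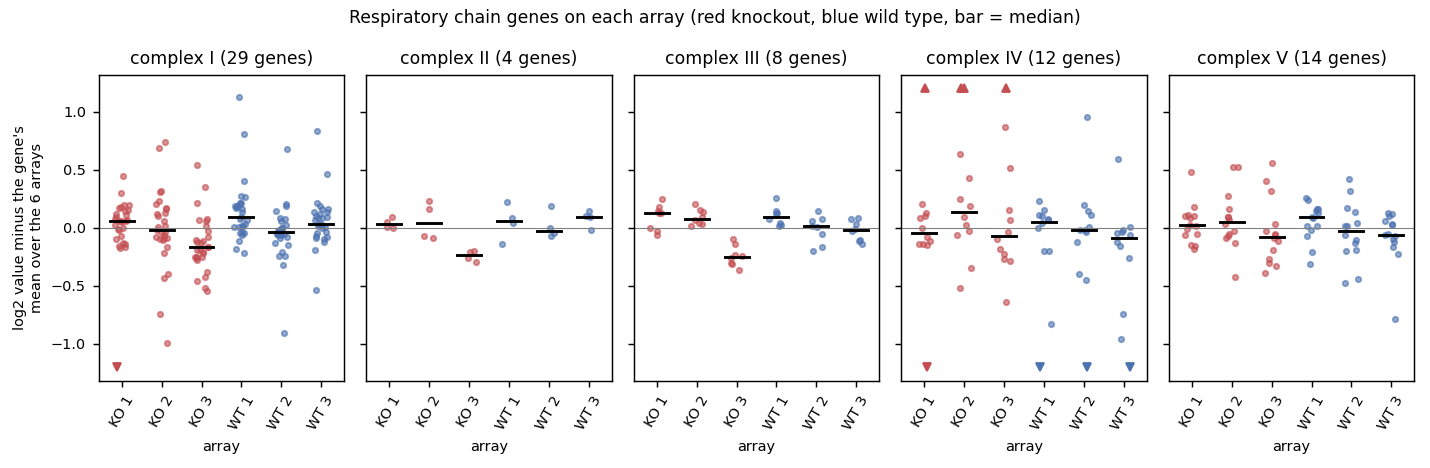
Deviation of each member's log2 value from its own mean over the 6 arrays (y axis), by array and complex, with red points for knockout and blue points for wild type, and a bar at the median. Triangles at the edge are genes beyond the axis. KO array 3 is the lowest array for every gene of complexes II and III, while its median in complex IV is only -0.07.

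Other genes of mitochondrial metabolism were read from fixed lists. None of them passed the test. Of 12 assembly and copper factors on the array, which include the 3 associated members, 9 had a log2 change below 0 and 3 above, with a median of -0.18. The smallest p-values belonged to Ndufaf1, to Cox16 (log2 change -0.33, adjusted p = 0.484), which helps to assemble complex IV, and to Sdhaf2 (-0.40, adjusted p = 0.508), which attaches flavin to Sdha. Of 18 citric acid cycle and pyruvate genes, 16 were tested and none had an unadjusted p under 0.05, and the median log2 change was -0.09. Pdhb, a subunit of pyruvate dehydrogenase, gave 13878, 17959 and 14461 on KO arrays and 17990, 18924 and 19361 on WT arrays. The KO arrays lay below the WT arrays, by a hair for KO array 2, with a log2 change of -0.29 (adjusted p = 0.469). Fh1, fumarase, and Dld, the dihydrolipoamide dehydrogenase subunit shared by several complexes, had log2 changes of -0.29 and -0.28 (adjusted p = 0.475 and 0.482).

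Of 19 carriers and coupling proteins on the array, 16 were tested, and 3 had an unadjusted p under 0.05, all lower in KO glands (18.8% of the tested, against 6.25% of all probe sets lower at that p). Macrophage and endothelial markers had higher values in the same glands, as given above, and their part in these values was not tested. Slc25a5, the ADP/ATP carrier of dividing cells and many tissues, gave 7351, 5805 and 6748 on KO arrays and 9576, 9019 and 11167 on WT arrays. Every KO array was lower, with a log2 change of -0.58 (unadjusted p = 0.0037, adjusted p = 0.208). Slc25a4, the ADP/ATP carrier of heart and muscle, gave 18843, 24065 and 21757 on KO arrays and 17454, 18396 and 17998 on WT arrays. Its KO arrays were all higher, at 1.05, 1.34 and 1.21 times the WT mean, with a log2 change of 0.26 (adjusted p = 0.490). KO arrays 2 and 3 are the arrays with muscle transcripts, and the part of muscle RNA in this value was not tested. Vdac3, a channel of the outer membrane, gave 8082, 6348 and 7134 on KO arrays and 11549, 9517 and 8813 on WT arrays, again without overlap (log2 change -0.47, adjusted p = 0.354). Etfa, which brings electrons from fatty acid oxidation into the chain, gave 15099, 12254 and 12493 on KO arrays and 16955, 17645 and 15539 on WT arrays, without overlap (log2 change -0.34, adjusted p = 0.408).

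Of 13 regulators of mitochondrial biogenesis on the array, 10 were tested, with a median log2 change over the 13 of 0.04. Ssbp1, which binds single-stranded mitochondrial DNA, gave 2324, 2232 and 2096 on KO arrays and 2780, 3207 and 2868 on WT arrays. All KO arrays were lower, with a log2 change of -0.41 (unadjusted p = 0.0270, adjusted p = 0.402). The transcription factors Yy1 and Gabpa had log2 changes of 0.25 and -0.34, and neither passed. As for the members, KO array 3 had the lowest summed signal of the 6 arrays for the assembly factors, for the citric acid cycle genes (180400) and for the carriers, where KO array 1 was close to it (116400 and 116930). For the biogenesis regulators WT array 1 was the lowest, at 31711, and KO array 3 had 37273.

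**Figure D4:**
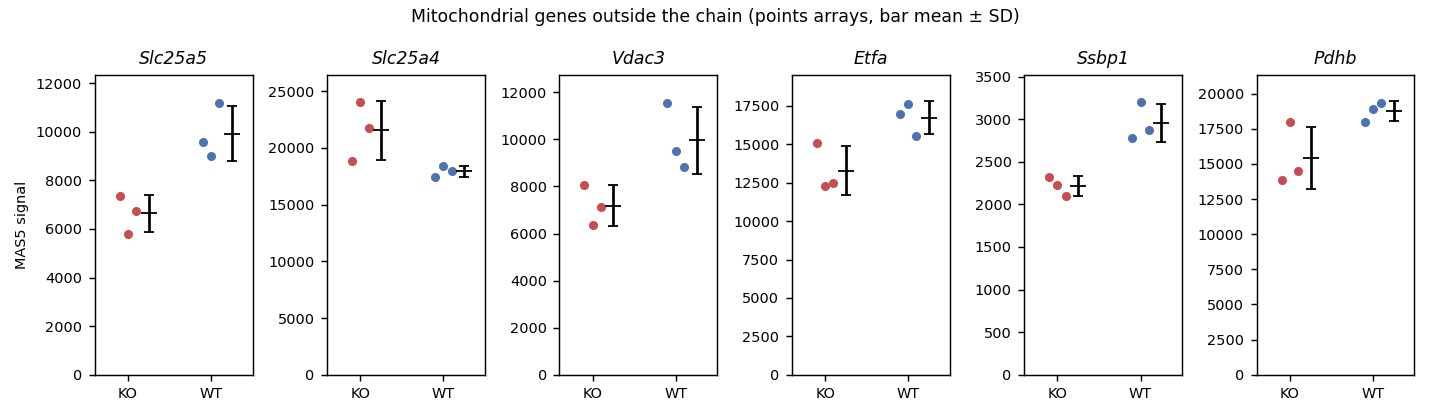
MAS5 signal (y axis, from 0) of 6 mitochondrial genes outside the chain, with a point per array and the mean ± SD (n = 3 each), knockout left and wild type right. The knockout arrays lie below the wild-type arrays for Slc25a5, Vdac3, Etfa, Ssbp1 and Pdhb and above them for Slc25a4, and none of the 6 passed the test.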

How the data were processed

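Adrenal RNA of 6 mice was measured on Affymetrix arrays, 1 sample per array. The deposited table holds 1 linear intensity for each probe set and array. The submitters' processing notes name MAS5 as the authors' tool, with no version, and its scaling target is not stated in the sources at hand. Arrays give no counting depth, and their number limits the precision. The labels state 3 mice per genotype, so each array was read as 1 animal. Symbols came from the platform annotation. Of 12422 probe sets without controls, 10833 had 1 symbol, 396 had more than 1 and 1193 had no entry. Among the 396, the 10 whose symbols include a chain gene were not members, and their log2 changes lay between -0.24 and 0.21. Probe sets whose names end in _f_at or _r_at can also bind related sequences. Members represented by such a probe set include Ndufb5, Cox6a1, Cox4i1, Uqcrb, Ndufa3, Atp5g2, Atp5d and Atp5md.

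Values were taken as log2(signal + 16), a scale that understates the change of dim genes. The tested probe sets were the 7453 at or above the 40th percentile of mean log2 signal, which corresponds to 582. limma 3.58.1 (R 4.3.3) fitted the genotype difference with lmFit and eBayes with an intensity trend, and p-values were adjusted by Benjamini-Hochberg over the 7453, at a threshold of 0.05. Adjusted p-values are from this fit unless an alternative is named beside them. The fit was also run on simulated arrays with independent errors and planted changes larger than those of most members. That run does not bear on small changes or on shifts that members share on one array. Errors are SE for log2 changes and SD for signals.

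The members, lists and tests were chosen with earlier results of these data known. Named members were those with an unadjusted p under 0.05 and no overlap, the brightest and the 2 with the largest change of each complex, isoform pairs and genes with probe sets of opposite sign. For other lists, up to 3 genes of smallest p were named. Ndufa7, Ndufs1, Ndufa9, Ndufc2, Sdhc, Sdhd, Cox5b, Atp5j, Slc25a4, Ckmt2 and the single marker genes were chosen after their values were seen. The alternatives were other pseudocounts, filters, scalings, eBayes settings, array weights, a replicate block, a covariate for the Gapdh 3′ to 5′ ratio, all probe sets of a gene, and leaving out arrays.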

Additional observations from a re-analysis of the deposited data

How the results depend on the processing

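With 3 arrays per genotype, the 95% interval of the change reached past 1.5-fold for 18 of the 66 tested members, and the values below say only how the choices of processing move the results. The count of members past the threshold was 0 by limma and stayed at 0, except that Cox6a2 passed with the replicate block and without KO array 1, so that leaving out each array gave 0 to 1. At an unadjusted p under 0.05, 3 members passed. The replicate numbers are not stated to mark pairs. The deviations of same-numbered arrays correlated at 0.255, -0.035 and -0.039, and those of differently numbered arrays at -0.181 to 0.25. Deviations within a group of 3 depend on each other, so these values cannot settle whether the arrays were paired. The paired fit with the replicate block gave 1 member, Cox6a2 (log2 change 3.32, adjusted p = 0.0438), a median of -0.05 over all members, and 57 calls over all probe sets in place of 33. Calls over all probe sets ranged from 12 with the Gapdh 3′ to 5′ ratio as a covariate to 141 without KO array 1.

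Leaving out each array in turn, the median log2 change ranged from -0.09 to 0.01 for all members, from -0.14 to -0.04 for complex I, from -0.14 to 0.01 for complex II, from -0.10 to 0.07 for complex III, from -0.08 to 0.02 for complex IV, from -0.04 to 0.03 for complex V and from -0.38 to -0.22 for the associated factors. The other choices moved each of these medians by less than the spread between arrays, except complex III, at 0.11 with the Gapdh covariate. That spread, 0.071 to 0.15, is larger than most of the medians. Over the 18 alternatives, leaving out arrays included, the median changed its sign in 3 for all members. It did so in 1 for complex II, 3 for complex III and 4 each for complexes IV and V. With the Gapdh covariate the median was 0.033 over all members and 0.022 in complex IV. Cox6a2 ranged from 1.23 to 4.22 over the alternatives, with adjusted p from 0.00748 to 0.998. The value turned its sign and moved by more than 1 SE for Atp5a1 (0.063), Cox4i1 (0.227), Cycs (0.079) and Uqcrc1 (0.075) with the Gapdh covariate, for Atp5a1 (0.022), Cox4i1 (0.182) and Uqcrc1 (0.080) with KO array 1 alone, and for Atp5g2 (0.050) and Ndufa3 (0.214) when all probe sets of a gene were averaged. None of these genes passed the test with the covariate or with KO array 1 alone, the averages have no test, and the cause was not tested. Of 421 tested values of the 25 named members with a test, 419 stayed on their side of the threshold, and the other 2 were those of Cox6a2. Averages over probe sets and the dim genes Ndufa12, Cox5a and Cox8a had no test of their own here. KO array 1 alone is 1 sample, assumed to vary like the WT arrays.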
